A study of Mus musculus with 43 samples.

Results

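This report follows 8 genes known as targets of the transcriptional coactivator YAP through mouse intestinal organoids and crypt cells: Ccn1, Ccn2, Ankrd1, Ajuba, Amotl2, Axl, Msln and Cd44. They were chosen by name as YAP target genes, with earlier results of these data known, and are 8 of the 23951 genes in each bulk expression table. The tables list Ccn1 and Ccn2 under their older symbols Cyr61 and Ctgf. YAP and its paralog TAZ (gene Wwtr1) are held in the cytoplasm when the Hippo kinase cascade is active. When the cascade is off they enter the nucleus and bind TEAD factors, which recognise short DNA motifs near their target genes. In the intestine, YAP activity is known for its part in the regeneration of the epithelium after injury.

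The organoids were wild-type C57BL/6 primary intestinal cultures, measured in bulk in 6 groups of 3 libraries. They were non-irradiated and collected on day 7 (D7 non-IR), given 4 Gy on day 4 and collected on day 7 (D7 IR), or given 4 Gy on day 4 and collected on day 11 (D11 IR), and each condition received vehicle or 2 ng/mL TGFB1 for 24 h from day 6. By these labels the treatment of the D11 organoids had ended before they were collected. Single cells came from organoids given 4 Gy on day 4 and collected on day 8, after 6, 15 or 24 h of 1 ng/mL TGFB1 or after vehicle (0 h), and from crypts of the proximal small intestine of Mki67tm1.1Cle/J mice, whose Ki67-expressing cells carry RFP. Those crypt cells were sorted as Ki67-RFP+ DAPI- from a non-irradiated littermate (1 library) or 56 h after 12 Gy (2 libraries). The labels do not say whether bulk replicates were separate cultures, so p-values measure the spread between these libraries. In bulk samples, fewer cells of a type and less RNA per cell cannot be told apart.

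The promoter sequences are shown for genes that differ in how many TEAD motifs lie close to the start: Ccn1 with 1 match, Ankrd1 and Ajuba with 2 each, and Cd44 with none. Each line holds the 250 bases before the transcript start in RefSeq, build GRCm38.p6, read 5′ to 3′ on the gene's strand, and capitals mark CATTCC or its reverse complement GGAATG. All 4 genes lie on the minus strand, at chr3:145649986-145650235 for Ccn1, chr19:36119845-36120094 for Ankrd1, chr14:54577662-54577911 for Ajuba and chr2:102901666-102901915 for Cd44.
Ccn1: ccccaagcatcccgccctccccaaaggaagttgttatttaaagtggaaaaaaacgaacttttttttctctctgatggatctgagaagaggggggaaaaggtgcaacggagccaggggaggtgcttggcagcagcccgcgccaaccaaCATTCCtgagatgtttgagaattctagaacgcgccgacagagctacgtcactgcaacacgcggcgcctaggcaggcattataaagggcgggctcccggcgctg
Ankrd1: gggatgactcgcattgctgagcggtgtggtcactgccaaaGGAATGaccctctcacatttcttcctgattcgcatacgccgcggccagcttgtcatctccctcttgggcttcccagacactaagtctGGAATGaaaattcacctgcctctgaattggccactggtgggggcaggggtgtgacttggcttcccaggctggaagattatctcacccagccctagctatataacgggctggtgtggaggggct
Ajuba: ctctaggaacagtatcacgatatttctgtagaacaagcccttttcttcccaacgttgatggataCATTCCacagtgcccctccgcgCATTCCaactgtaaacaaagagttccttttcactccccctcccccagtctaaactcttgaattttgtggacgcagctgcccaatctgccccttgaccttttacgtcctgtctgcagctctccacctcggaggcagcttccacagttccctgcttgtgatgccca
Cd44: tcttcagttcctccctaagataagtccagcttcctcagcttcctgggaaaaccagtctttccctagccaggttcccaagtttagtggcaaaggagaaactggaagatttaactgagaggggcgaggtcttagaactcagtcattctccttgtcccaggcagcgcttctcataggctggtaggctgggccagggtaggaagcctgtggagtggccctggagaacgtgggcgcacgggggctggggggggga
Of the 6 members with an entry in the RefSeq table (Ccn1, Ankrd1, Ajuba, Amotl2, Axl and Cd44), 5 held CATTCC on either strand in this window, against 12.6% of 32851 promoters of the same length. Ankrd1 and Ajuba held it in 2 places, and 1.02% of all promoters held it in 2 or more. The matches began 103 bases before the start in Ccn1, 210 and 123 in Ankrd1, 186 and 164 in Ajuba, 65 in Amotl2 and 233 in Axl. For Amotl2 and Axl the transcript start used lies inside the span of the gene in RefSeq. Their distances are thus not from the outermost end of the gene. The AP-1 motif TGANTCA was in none of the 6, against 6.75% of all promoters, and the SMAD motif CAGACA was in Ankrd1 and Ajuba, against 17.1%. These are matches of letters, not measured binding. Ccn2 and Msln were not among the entries.

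The bulk levels are given first, in FPKM, which the authors scaled by transcript length and library size. Each condition lies in a table of its own. Levels differed widely between members in every condition. In D7 non-IR vehicle organoids the order of mean levels was Msln at 22.1 FPKM, Ccn1 at 19.5, Cd44 at 18.7, Ajuba at 13.1, Ccn2 at 8.66, Amotl2 at 5.95, Ankrd1 at 2.78 and Axl at 0.0228. The libraries of Ccn1 and Cd44 overlapped in that order, and no other neighbours did. With TGFB1 Ccn2 led the same condition with 178 FPKM, ahead of Cd44 at 112, Ccn1 at 77.3, Ajuba at 46.5 and Msln at 36.7. In D11 IR organoids with TGFB1 it was Msln that led with 155 FPKM, followed by Cd44 at 75.3 and Ajuba at 60.2. Ccn1 at 35.4 and Ccn2 at 34.4 FPKM overlapped there, and so did Ankrd1 at 14.4 and Amotl2 at 14.1.

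**Figure D1:**
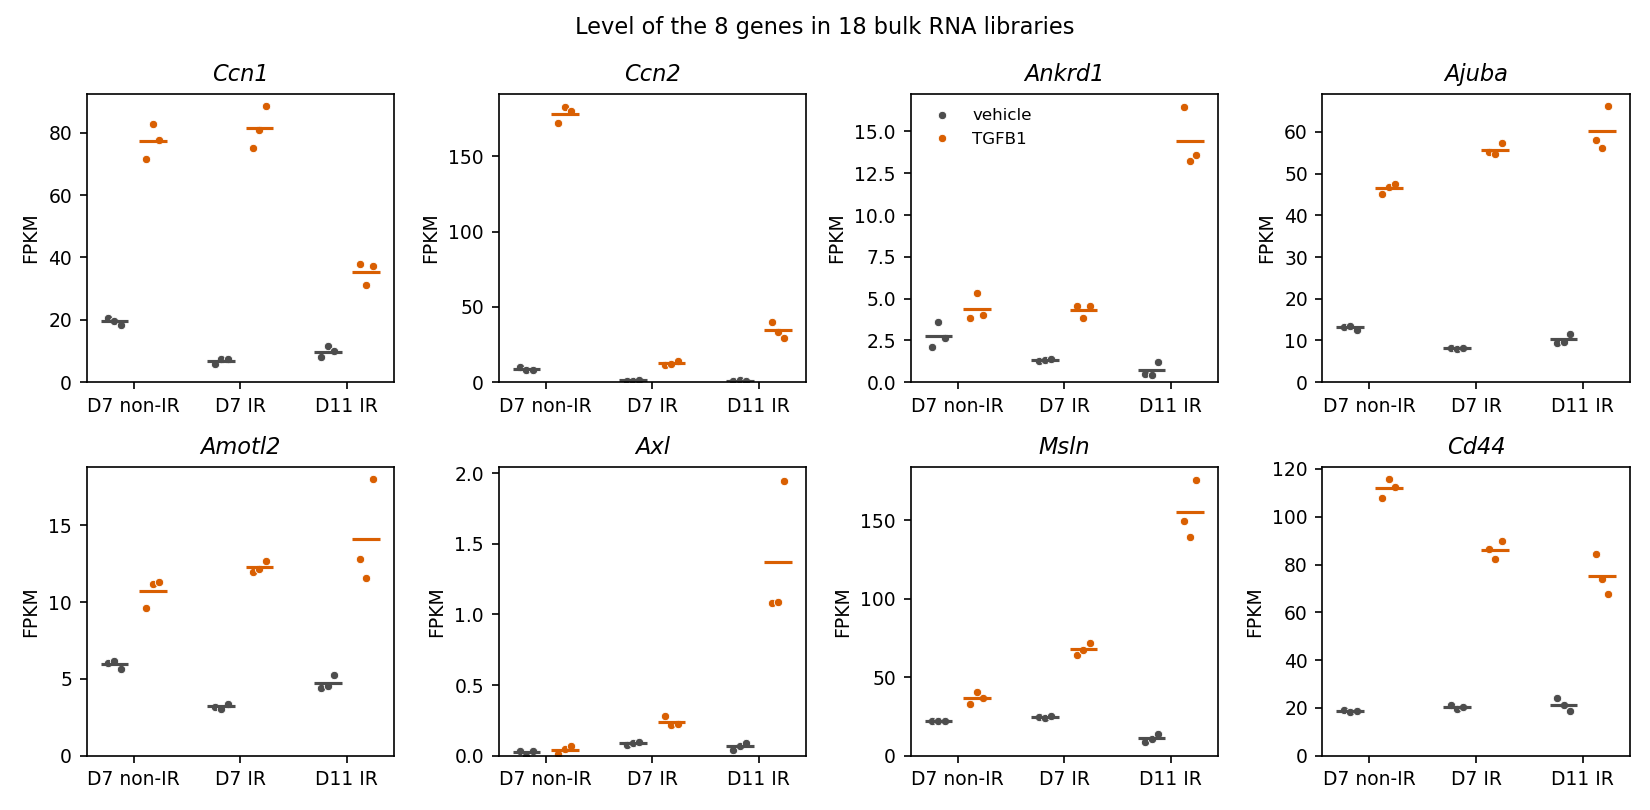
FPKM of each gene (y axis, linear, own scale per gene) in the 18 bulk RNA libraries, by condition (x axis). Points are single libraries, short lines the mean of 3, grey vehicle and orange TGFB1. The orange points lie above the grey ones in every panel except Axl in D7 non-IR organoids, and the tallest TGFB1 group is D7 non-IR for Ccn2 and D11 IR for Ankrd1, Axl and Msln.

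TGFB1 raised 7 of the 8 genes in all 3 conditions. These 7 passed the filter of a mean of 1 FPKM in the libraries compared, and each had an adjusted p under 0.05 in limma on log2(FPKM + 1), as did 33.3% of all genes tested in the upward direction in D7 non-IR, 35.8% in D7 IR and 32.3% in D11 IR. A called rise of at least 1 log2 unit was made by 4 of the 7 in D7 non-IR, where 5.52% of genes made one, and by all 7 in D7 IR (7.79% of genes). In D11 IR Ankrd1, with a vehicle mean of 0.707 FPKM, passed the filter only through its TGFB1 libraries. The other 6 were called there, each with a rise of at least 1 log2 unit (5.67% of genes). The median log2 change was 1.75 in D7 non-IR, 2.04 in D7 IR and, without Ankrd1, 2.11 in D11 IR, beside -0.02, -0.03 and 0.01 over all genes tested. Axl was below the filter in each table. Without regard to the test, the TGFB1 libraries of all 7 genes tested lay above all vehicle libraries in each condition. Of all genes tested, 35.3%, 37.1% and 35.8% did so. Axl, outside these shares, did so in the irradiated conditions only. Ankrd1 is counted in D11 IR, where it passed the filter only through its TGFB1 libraries.

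**Figure D2:**
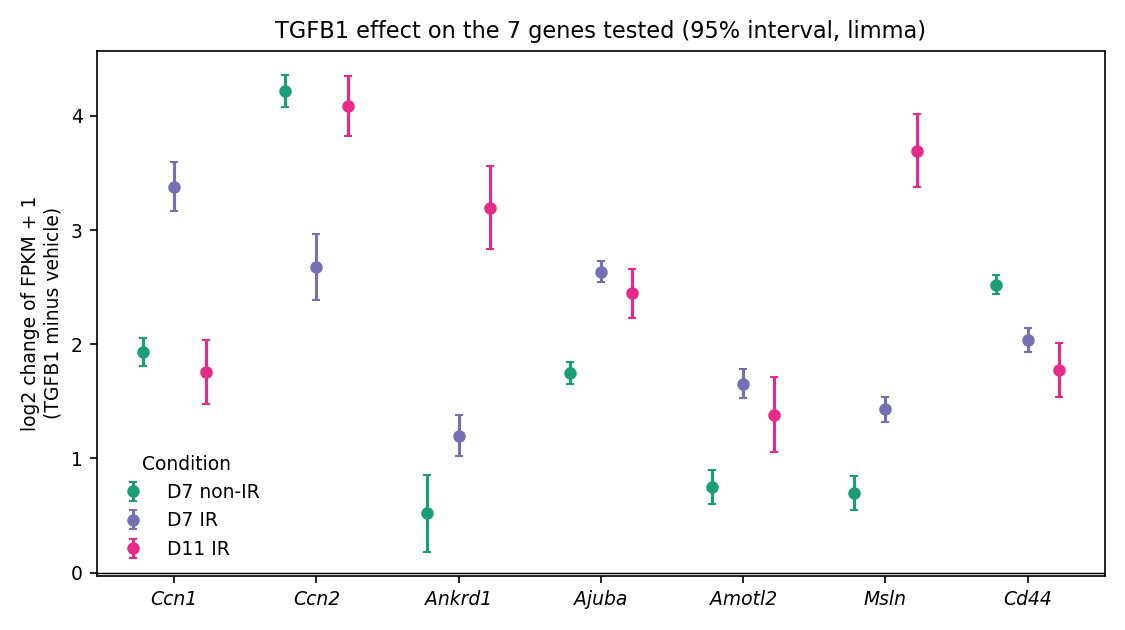
log2 change of FPKM + 1 by TGFB1 (y axis) for the 7 genes tested (x axis), with 95% intervals from limma, in D7 non-IR (green), D7 IR (violet) and D11 IR (pink) organoids. Every interval lies above 0, and the order of the 3 conditions differs between genes: the D7 non-IR estimate is the highest for Cd44 and the lowest for Ajuba.

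Ccn1 and Ccn2 encode secreted matricellular proteins that bind integrins, and they are the most used readouts of YAP activity. Ccn1 stood at 20.5, 19.7 and 18.4 FPKM in the D7 non-IR vehicle libraries and at 71.7, 82.6 and 77.6 with TGFB1, a log2 change of 1.93 (SE 0.06, limma adjusted p = 4.1e-10). In D7 IR organoids the vehicle libraries held 5.79, 7.49 and 7.52 FPKM and the TGFB1 libraries 75.0, 80.7 and 88.4, a log2 change of 3.38 (SE 0.09, limma adjusted p = 2.9e-09). In D11 IR organoids they held 7.94, 11.5 and 10.0 against 37.8, 31.2 and 37.1 FPKM, a log2 change of 1.76 (SE 0.12, limma adjusted p = 2.1e-06). The D7 groups with TGFB1 overlapped between the tables, at means of 77.3 and 81.4 FPKM, while the vehicle groups did not, at 19.5 and 6.93 FPKM.

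Ccn2 followed another course. It stood at 9.78, 8.06 and 8.13 FPKM with vehicle and 172, 183 and 180 with TGFB1 in D7 non-IR, a log2 change of 4.22 (SE 0.06, limma adjusted p = 1.1e-11). The change was the 14th highest of the 11330 genes tested. In D7 IR organoids the same treatment led to 11.4, 11.8 and 14.1 FPKM from 1.02, 0.785 and 1.54, a log2 change of 2.68 (SE 0.13, limma adjusted p = 5.0e-08). The irradiated TGFB1 libraries lay above the non-irradiated vehicle libraries, at means of 12.4 and 8.66 FPKM. These lie in tables deposited apart, and no test was made between them. In D11 IR organoids Ccn2 was at 1.06, 1.21 and 0.939 FPKM with vehicle and 40.3, 33.1 and 29.7 with TGFB1, a log2 change of 4.09 (SE 0.12, limma adjusted p = 1.7e-08).

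Of the genes that act inside the cell, Ankrd1 encodes an ankyrin repeat protein of the nucleus and sarcomere, Ajuba a LIM protein that binds and inhibits LATS kinases, and Amotl2 an angiomotin family protein that holds YAP at junctions. Ajuba and Amotl2 thereby act back on the pathway. The response of Ankrd1 differed between the conditions. In D7 non-IR organoids it stood at 2.12, 3.57 and 2.65 FPKM with vehicle and 3.83, 5.31 and 4.03 with TGFB1, a log2 change of 0.52 (SE 0.15, limma adjusted p = 0.012). The lowest TGFB1 library lay just above the highest vehicle library. In D7 IR it went from 1.24, 1.31 and 1.37 to 4.55, 3.84 and 4.56 FPKM (log2 change 1.20, SE 0.08). In D11 IR it went from 0.489, 0.449 and 1.18 to 16.5, 13.2 and 13.6 FPKM, a log2 change with a 95% interval of 2.83 to 3.56 (SE 0.16, limma adjusted p = 2.8e-07), the largest change of Ankrd1 in the 3 tables.

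Ajuba gave tight replicates and large changes. It stood at 13.3, 13.6 and 12.5 FPKM against 45.1, 46.8 and 47.6 with TGFB1 in D7 non-IR (log2 change 1.75, SE 0.04). In D7 IR it stood at 8.23, 8.04 and 8.11 against 55.2, 54.7 and 57.4 FPKM (2.64, SE 0.04, limma adjusted p = 1.7e-11), and in D11 IR at 9.40, 9.75 and 11.5 against 58.0, 56.2 and 66.3 FPKM (2.45, SE 0.10). Amotl2 was at 6.04, 6.19 and 5.63 FPKM against 9.64, 11.2 and 11.3 in D7 non-IR (log2 change 0.75, SE 0.07). Its D7 IR libraries held 3.18, 3.06 and 3.39 against 12.0, 12.1 and 12.7 FPKM (1.66, SE 0.06), and its D11 IR libraries 4.39, 4.52 and 5.27 against 12.8, 11.5 and 18.1 FPKM (1.38, SE 0.15). The third D11 library with TGFB1 stood apart from the other two for Amotl2.

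The surface proteins were the receptor tyrosine kinase Axl, the GPI-anchored mesothelin (Msln), and the hyaluronan receptor Cd44. Axl was near the bottom of the scale in most libraries. In D7 non-IR it was listed at 0.0350, 0 and 0.0333 FPKM with vehicle and at 0.0115, 0.0469 and 0.0660 with TGFB1, and these groups overlapped. In D7 IR it was at 0.0789, 0.0893 and 0.0952 against 0.281, 0.218 and 0.223 FPKM, and in D11 IR at 0.0416, 0.0676 and 0.0864 against 1.08, 1.09 and 1.95 FPKM. A fit without the filter gave Axl log2 changes of 0.03 (limma adjusted p = 0.49), 0.19 (adjusted p = 0.0017) and 1.13 (adjusted p = 5.7e-04) in the 3 conditions. In those fits 24.5%, 27.4% and 24.2% of the genes were called higher.

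Msln changed least in D7 non-IR organoids and most in D11 IR organoids. It stood at 22.0, 22.0 and 22.4 FPKM with vehicle and 32.7, 40.7 and 36.7 with TGFB1 in D7 non-IR (log2 change 0.70, SE 0.07, limma adjusted p = 5.6e-06). It stood at 24.5, 23.7 and 25.2 against 64.2, 67.3 and 71.7 FPKM in D7 IR (1.43, SE 0.05). In D11 IR it stood at 8.90, 10.8 and 13.6 against 150, 139 and 175 FPKM, a log2 change of 3.70 (SE 0.14, limma adjusted p = 1.3e-07). Cd44 showed the opposite order of conditions. Its vehicle level differed little between the 3 tables, at 18.2 to 19.1 FPKM in D7 non-IR, 19.5 to 21.0 in D7 IR and 18.9 to 24.1 in D11 IR. With TGFB1 it reached 108, 116 and 113 FPKM in D7 non-IR (log2 change 2.52, SE 0.04), 86.3, 82.3 and 89.8 in D7 IR (2.04, SE 0.05) and 84.3, 74.1 and 67.6 in D11 IR (1.77, SE 0.11).

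Markers of other cell states moved in the same libraries, and their part in the changes of the 8 genes was not tested. The 8 stem markers summed to 923 to 1010 FPKM with vehicle and 588 to 612 with TGFB1 in D7 non-IR. They summed to 984 to 1017 and 397 to 483 in D7 IR, and 583 to 763 and 723 to 887 in D11 IR. The 9 proliferation markers summed to 974 to 992 and 885 to 914 FPKM in D7 non-IR. They summed to 766 to 789 and 381 to 410 in D7 IR, and 775 to 839 and 906 to 962 in D11 IR. The 9 markers of regenerative epithelium summed to 731 to 764 FPKM with vehicle and 5398 to 5658 with TGFB1 in D7 non-IR, 680 to 731 and 7463 to 8196 in D7 IR, and 546 to 725 and 6868 to 7926 in D11 IR. The 12 enterocyte markers summed to 3543 to 3689 and 1784 to 1921 FPKM in D7 non-IR, 14880 to 15995 and 22157 to 23071 in D7 IR, and 3669 to 6365 and 2487 to 2944 in D11 IR. The 9 mesenchymal markers were at or near 0: they summed to 0.481 to 0.872 FPKM in the vehicle libraries and to at most 4.86 with TGFB1, where Acta2 in D7 IR, at a mean of 3.22 FPKM, led and 4 of the 9 were at 0 in all 3 libraries. The 5 endothelial markers summed to at most 0.308 FPKM in any library. Among 9 immune markers Cd74 alone reached 1 FPKM in D7 non-IR, at means of 26.2 FPKM with vehicle and 83.2 with TGFB1. In the irradiated conditions Lyz2 led, at 2.88 and 8.88 FPKM in D7 IR and 2.49 and 5.74 in D11 IR.

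The question whether irradiation altered the TGFB1 response was tested as an interaction over the 12 D7 libraries, since scaling shared by 1 table drops out of such a term, except at low levels where the added 1 weighs in. The response of all 7 genes tested differed, where 53.1% of genes did. It was larger in irradiated organoids for 5 (25.3% of genes): Ccn1 by 1.45 log2 units (SE 0.12, limma adjusted p = 4.5e-07), Amotl2 by 0.91, Ajuba by 0.89, Msln by 0.73 and Ankrd1 by 0.68 (SE 0.18, limma adjusted p = 0.0052). It was smaller for 2 (27.8% of genes): Ccn2 by -1.54 log2 units (SE 0.16, limma adjusted p = 5.2e-06) and Cd44 by -0.49 (SE 0.06, limma adjusted p = 1.0e-05). The Ccn2 term depended on the pseudocount: with a pseudocount of 0.1 in place of 1 the term was -0.95 (limma adjusted p = 0.011). Axl, in a fit without the filter, had a term of 0.16 (limma adjusted p = 0.0061).

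The levels behind these terms differed between genes. Across the 2 D7 tables, which were deposited apart and carry no test, the irradiated vehicle libraries lay below all non-irradiated ones for Ccn1, Ccn2, Ankrd1, Amotl2 and Ajuba (44.3% of genes) and above them for Axl, Msln and Cd44 (40.7%). The mean was 7.75 times lower for Ccn2 (8.66 against 1.12 FPKM), 2.82 times lower for Ccn1, 2.12 for Ankrd1, 1.86 for Amotl2 and 1.61 for Ajuba. For Msln and Cd44 it was 1.11 and 1.08 times higher. With TGFB1, the D7 IR libraries lay above the D7 non-IR ones for Amotl2, Ajuba and Msln (38.4%) and, outside these shares, for Axl. They lay below them for Ccn2 and Cd44 (45.7%), and overlapped for Ccn1 and Ankrd1. For Ccn1 and Ankrd1 the TGFB1 levels were thus alike while the vehicle levels differed. For Ccn2 the level with TGFB1 was 14.3 times lower after irradiation.

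Between D11 and D7, over the 12 irradiated libraries, the response of 4 of the 7 genes tested differed (64.5% of genes). It was larger at D11 for Msln by 2.26 log2 units (SE 0.17, limma adjusted p = 9.4e-08), for Ankrd1 by 2.00 (SE 0.20, limma adjusted p = 9.1e-07) and for Ccn2 by 1.41 (SE 0.19, limma adjusted p = 1.8e-05), in a direction in which 31.5% of genes were called. It was smaller for Ccn1 by -1.62 (SE 0.18, limma adjusted p = 3.3e-06), against 33.0% of genes. For Amotl2 (-0.27, 95% interval -0.64 to 0.09), Ajuba (-0.19, -0.42 to 0.04) and Cd44 (-0.26, -0.53 to 0.00) the term did not pass, with limma adjusted p = 0.17, 0.13 and 0.075. The count was 6 without the third D11 library with TGFB1, where Amotl2 (-0.45, limma adjusted p = 0.0036) and Ajuba (-0.26, limma adjusted p = 0.0375) passed. Cd44 passed without the third D11 vehicle library (-0.35, limma adjusted p = 0.018) or the first D11 library with TGFB1 (-0.35, limma adjusted p = 0.021). Axl without the filter had a term of 0.95 (limma adjusted p = 3.5e-04).

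The D11 vehicle libraries lay above the D7 IR vehicle libraries for Ccn1, Amotl2 and Ajuba (33.7% of genes) and below them for Ankrd1 and Msln (33.1%). The mean of Msln was 11.1 FPKM at D11 and 24.5 at D7, and that of Ankrd1 0.707 and 1.31. The D11 libraries with TGFB1 lay above those of D7 IR for Ccn2, Ankrd1 and Msln (38.7%), with mean ratios of 2.76, 3.34 and 2.29. They did so for Axl too, with a ratio of 5.70, outside these shares for its low mean. They lay below them for Ccn1 (38.8%), which was 2.30 times lower. Amotl2, Ajuba and Cd44 overlapped with TGFB1 at the 2 days.

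A further 18 genes known as YAP or TEAD targets were read beside the 8. Some passed the filter of a mean of 1 FPKM only through their TGFB1 libraries, which favoured a rise. Fstl1 and Ptpn14 did so in each condition, Nt5e in both D7 conditions, and Igfbp3 in D7 IR and D11 IR. These genes were named after their values were seen. Their vehicle means there ran from 0.131 FPKM (Fstl1, D7 non-IR) to 0.941 (Ptpn14, D11 IR). The counts and medians below include them, so nothing is read from how these lie against all genes. In D7 non-IR 13 of 14 tested rose (33.3% of all genes) and Igfbp3 fell (-0.31), with a median log2 change of 0.70. Falls were called for 34.9% of all genes in that condition, 39.7% in D7 IR and 31.6% in D11 IR. In D7 IR all 14 tested rose (35.8% of all genes), with a median of 1.01. In D11 IR 8 of 13 rose (32.3% of all genes) and Gadd45a (-1.03) and Nuak2 (-0.47) fell, with a median of 0.64. The highest mean changes over the 3 tables were those of Myof, a membrane repair protein (2.15, 2.10 and 3.64), the tissue factor gene F3 (2.80, 3.26 and 0.70) and Fstl1, a secreted glycoprotein (2.47, 2.42 and 1.44). The lowest were those of Nuak2 (0.50, 0.52 and -0.47), Crim1 (0.30, 0.57 and 0.02, the last not called) and Wtip (0.22, 0.45 and 0.40). The term for day was lower at D11 in 8 of 14 (33.0% of all genes) and higher in 3 (31.5%).

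Among 18 genes of the Hippo pathway and its TEAD partners, 12 rose and 2 fell in D7 non-IR, 14 rose and 2 fell in D7 IR, and 13 rose and 2 fell in D11 IR. Of all genes, 33.3, 35.8 and 32.3% rose in these conditions and 34.9, 39.7 and 31.6% fell. Amotl1, named after its values were seen, passed the filter in each condition only through its TGFB1 libraries. Its vehicle means were 0.453, 0.464 and 0.247 FPKM, and the genes tested include it. The falls were those of Nf2 and Vgll4 in each condition, named after their values were seen. Yap1 was at 37.6, 31.5 and 33.2 FPKM in mean with vehicle in the 3 conditions and rose by 0.25, 0.13 and 0.37 log2 units. Wwtr1 was at 18.5 FPKM in D7 non-IR vehicle organoids, 1.27 in D7 IR and 4.32 in D11 IR, and rose by 0.13, 1.68 and 1.56. Its vehicle libraries did not overlap between these tables. Tead4 rose most among the TEAD genes in each condition, by 2.09, 1.85 and 2.46, and Tead2 by 0.95, 1.51 and 1.68. Tead1 rose by 0.38, 0.91 and 0.37, and Tead3 did not pass the test in any condition.

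The genes whose levels were most like each member's were sought over the 18 bulk libraries by Pearson's r on log2(FPKM + 1), among 6186 genes with a range of group means of at least 1 log2 unit. The libraries fall into 6 groups of 3 that share conditions, and r is given as a description. For Ccn1 the nearest were Anxa5 (r = 0.991), Cxcl16 (0.987) and Tmsb4x (0.986). For Ccn2 they were Fmnl2 (0.988), Sh3bgrl2 (0.986) and Spire1 (0.985), and for Ankrd1 Wfdc2 (0.985), Dennd5a (0.961) and Srgap2 (0.960). Epha2 was among the nearest both for Amotl2 (0.981) and for Ajuba (0.988). Amotl2 had Ajuba (0.976) and Lats2 (0.975) next, and Ajuba was closest to Slc35e4 (0.991) and Ptrf (0.990). Axl was closest to Spp1 (0.985), Tgm1 (0.982) and Wnt7b (0.977). Msln was closest to F2r (0.978), Nt5c1a (0.970) and Tmem189 (0.969), and Cd44 to Xk (0.993), Nfe2l3 (0.990) and Fam43a (0.987).

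In single cells of irradiated D8 organoids the question was how soon the genes responded. Each time had 1 library, of 2932, 4283, 2890 and 2218 cells at 0, 6, 15 and 24 h, so no test was made and intervals cover counting error. No pair of libraries shared more than 1 cell barcode. Levels are CPM (counts scaled to a common library total) of the summed unique molecular identifiers (UMIs), which are not scaled by gene length. Ccn1 stood at 143 CPM at 0 h, 195 at 6 h, 353 at 15 h and 471 at 24 h, and Cd44 at 44.1, 64.6, 83.5 and 133 CPM. Ccn2 stood at 1.17, 3.36, 12.5 and 21.6 CPM. Its ratio to 0 h was 2.87 at 6 h (95% interval 1.92 to 4.40) and 18.5 at 24 h (13.0 to 27.3).

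Ajuba stood at 4.34, 7.62, 14.4 and 23.4 CPM, a ratio of 5.39 at 24 h (4.43 to 6.60). Amotl2 stood at 11.6, 13.5, 28.8 and 33.6 CPM, with most of the difference between 6 and 15 h, where the ratio was 2.13 (1.89 to 2.40). Msln stood at 3.99, 6.36, 14.5 and 11.2 CPM, and its ratio of 24 to 15 h was 0.772 (0.665 to 0.896). It was the one member whose level was lower at 24 h than at 15 h. Ankrd1 had 2, 1, 7 and 17 UMIs at the 4 times, a ratio of 7.59 at 24 h with an interval of 1.80 to 67.7. Axl had no UMI in any of the 4 libraries, which allows up to 0.0925 to 0.114 CPM.

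At 6 h, 1 of the 6 members with a mean of 1 CPM in the pair of libraries, Ccn2, was at least 2-fold above 0 h, as were 2.51% of genes. At 15 h 5 of 6 were (4.32% of genes), all but Cd44 at 1.89-fold, and at 24 h 6 of 6 (9.16%). Regenerative markers summed to 305, 605, 1748 and 3345 CPM at the 4 times and mesenchymal ones to 1.44, 1.57, 1.75 and 3.82 CPM. Median depth was 8202, 6709, 7805 and 10441 UMIs per cell. Wwtr1 stood at 1.76, 2.34, 4.83 and 7.51 CPM, and Yap1 at 56.5, 68.0, 62.3 and 62.6.

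**Figure D3:**
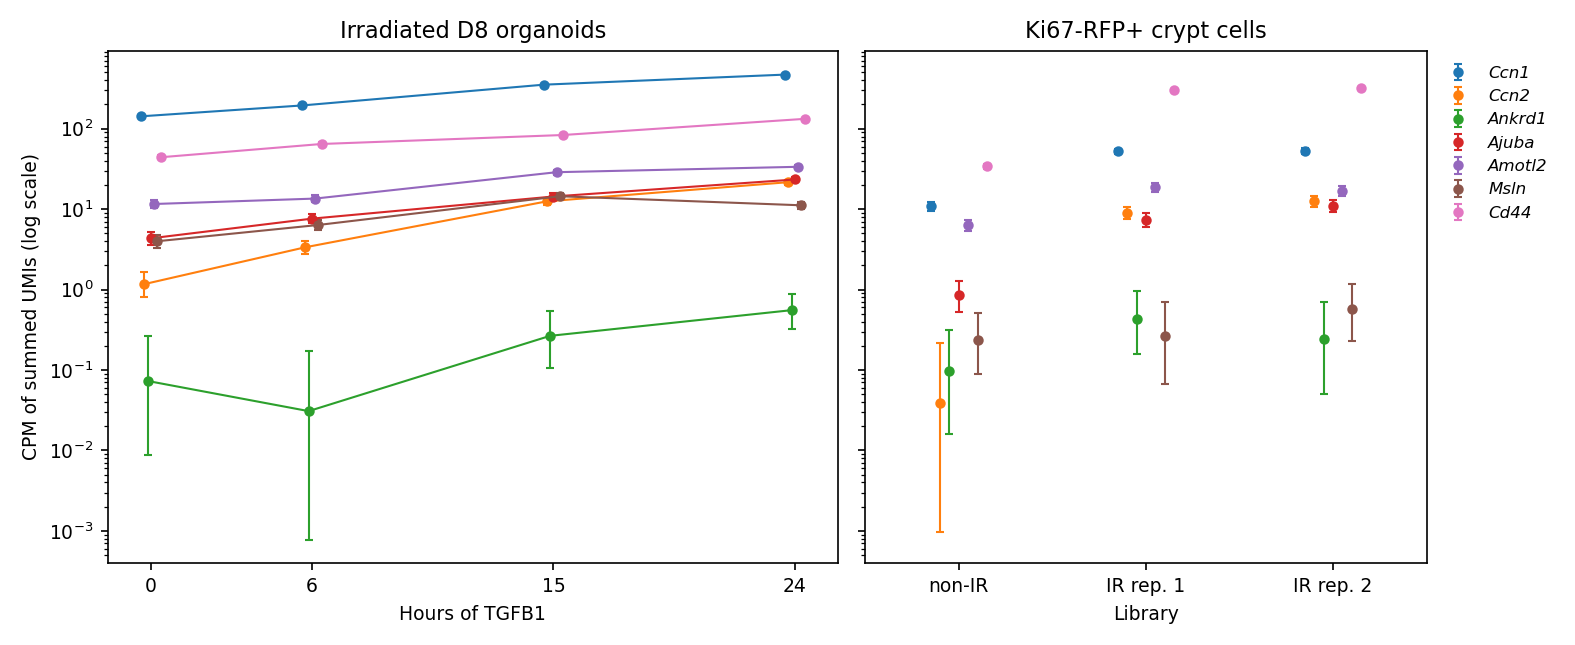
CPM of summed UMIs (y axis, log scale) with exact 95% Poisson intervals, against hours of TGFB1 in irradiated organoids (left) and by library in Ki67-RFP+ crypt cells (right). Points within a time are shifted sideways so that they can be told apart. Axl is not drawn, since it had no UMI in 5 of the 7 libraries. Ccn1 and Cd44 are the highest members in both experiments, and Ccn2 in crypts goes from 1 UMI in the non-irradiated library to 8.96 and 12.6 CPM in the irradiated ones.

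The share of cells with a UMI was compared after each cell was thinned to 2000 UMIs. For Ccn1 it was 17.8, 22.4, 32.6 and 39.4% of cells at 0, 6, 15 and 24 h (37.7, 43.2, 57.6 and 69.9% without thinning). For Cd44 it was 6.89, 10.6, 11.9 and 15.5%, and for Amotl2 2.69, 2.76, 5.47 and 6.36%. Msln was found in few cells with several UMIs each: its 342 UMIs at 24 h came from 60 cells, 5.70 per cell, whereas the 663 UMIs of Ccn2 came from 227 cells. Cells with no UMI of any member made up 74.8, 68.5, 58.3 and 50.7% of thinned cells at the 4 times, and cells with 2 members 3.31, 5.93, 10.0 and 13.3%.

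In organoids, cells with a Ccn1 UMI held a Cd44 UMI more often than cells without one at each time. The shares after thinning were 11.1 against 5.98% at 0 h, 18.9 against 8.25% at 6 h, 20.5 against 7.75% at 15 h and 23.6 against 10.3% at 24 h, and the 95% intervals did not overlap. For Ccn2 at 24 h they were 4.92% of the 874 cells with Ccn1 (3.58 to 6.57%) and 0.967% of the 1344 without (0.516 to 1.65%). Msln at 24 h was found in 2 of the 874 cells with Ccn1 (0.0277 to 0.824%) and 13 of the 1344 without (0.516 to 1.65%). At 0, 6 and 15 h these shares were 0.383 against 0.332%, 0.418 against 0.632% and 0.955 against 1.23%. Msln at 24 h was found in 2.03% of cells with Cd44 (0.822 to 4.15%) against 0.427% without (0.184 to 0.839%). The counts for Msln are small, and both pairs of intervals at 24 h overlapped. In irradiated crypt cells the shares with Cd44 were 48.1 against 40.2% in the first library and 45.8 against 42.1% in the second, with overlapping intervals. These intervals cover cells of 1 library and are a description.

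The organoid cells were clustered without the 8 genes, and the members were then read in 16 clusters of at least 50 cells. Cluster 6, led by Cym, Fstl1 and Thbs1 and left unnamed, also had the regenerative marker Clu among its leading genes. It held 705 cells, of which 668 were from 15 and 24 h. Over all times it stood at 1141 CPM for Ccn1, 66.2 for Ccn2 and 60.4 for Amotl2. Among the clusters with at least 50 cells at a time, it had the highest Ccn1 at 15 h (956 CPM) and 24 h (1247 CPM) and the highest Ccn2 at both (53.6 and 73.4 CPM). Amotl2 was highest elsewhere, in cluster 12 at 15 h (71.6 CPM, 63 cells) and in goblet-like cluster 11 at 24 h (75.4 CPM, 69 cells). Over all times clusters 12 and 11 held only 47.1 and 78.6 Amotl2 UMIs, at 35.5 and 37.1 CPM. Cluster 6 held 506 and was the highest of the 16 clusters over all times, at 60.4 CPM. The Amotl2 order at 15 and 24 h thus rests on few UMIs, and nothing is read from it. Cluster 9 was named regenerative-like, with Anxa1, Anxa8 and S100a6 among its leading genes, which also held the enteroendocrine marker Pyy. It held 412 cells, with Cd44 at 310 CPM, Ajuba at 46.5 and Msln at 106 over all times. It had the highest Cd44 and Msln at 15 h (259 and 138 CPM) and at 24 h (344 and 67.2 CPM). At 0 and 6 h neither cluster 6 nor cluster 9 held 50 cells, and Msln was highest in cluster 8 (37.5 and 58.0 CPM). Cluster 9 held 760 of the Msln UMIs, and cluster 8, led by Ada and Pnliprp2, 160 with a level of 41.4 CPM. In cluster 6 Msln was at 1.31 CPM, so that the cluster highest in Ccn2 at 15 and 24 h and the one highest in Msln differed. The enterocyte-like cluster 3 was low for each, with Ccn1 at 40.5, Cd44 at 5.09 and Ccn2 at 0.783 CPM.

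For comparison with a type of low level, 7.69% of the thinned cells of enterocyte-like cluster 3 had a Ccn1 UMI (median depth 7048 UMIs) against 78.2% in cluster 6 (10237 UMIs). For Cd44 these shares were 1.28 and 32.5%, and for Ccn2 0.128 and 8.51%. Within 1 cluster the levels also differed by time. In the proliferation-like cluster 2, with 157 to 874 cells per library, Ccn1 was at 68.2, 307, 731 and 850 CPM at 0, 6, 15 and 24 h, Ccn2 at 0.603, 5.65, 16.3 and 31.3, and Cd44 at 38.6, 102, 141 and 200. Cluster 10, also proliferation-like, had 381 of its 407 cells from 0 h. Over all times it stood at 226 CPM for Ccn1, 1.54 for Ccn2 and 94.0 for Cd44. The 0 h levels of cluster 2 thus do not stand for all proliferation-like cells of that time. In enterocyte-like cluster 3 Ccn1 was at 18.7, 32.4, 48.1 and 60.4 CPM and Cd44 at 2.02, 3.11, 5.13 and 10.8. These low levels moved with those of the whole libraries, where Ccn1 was at 143, 195, 353 and 471 CPM, and the part of free RNA in them was not tested.

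**Figure D4:**
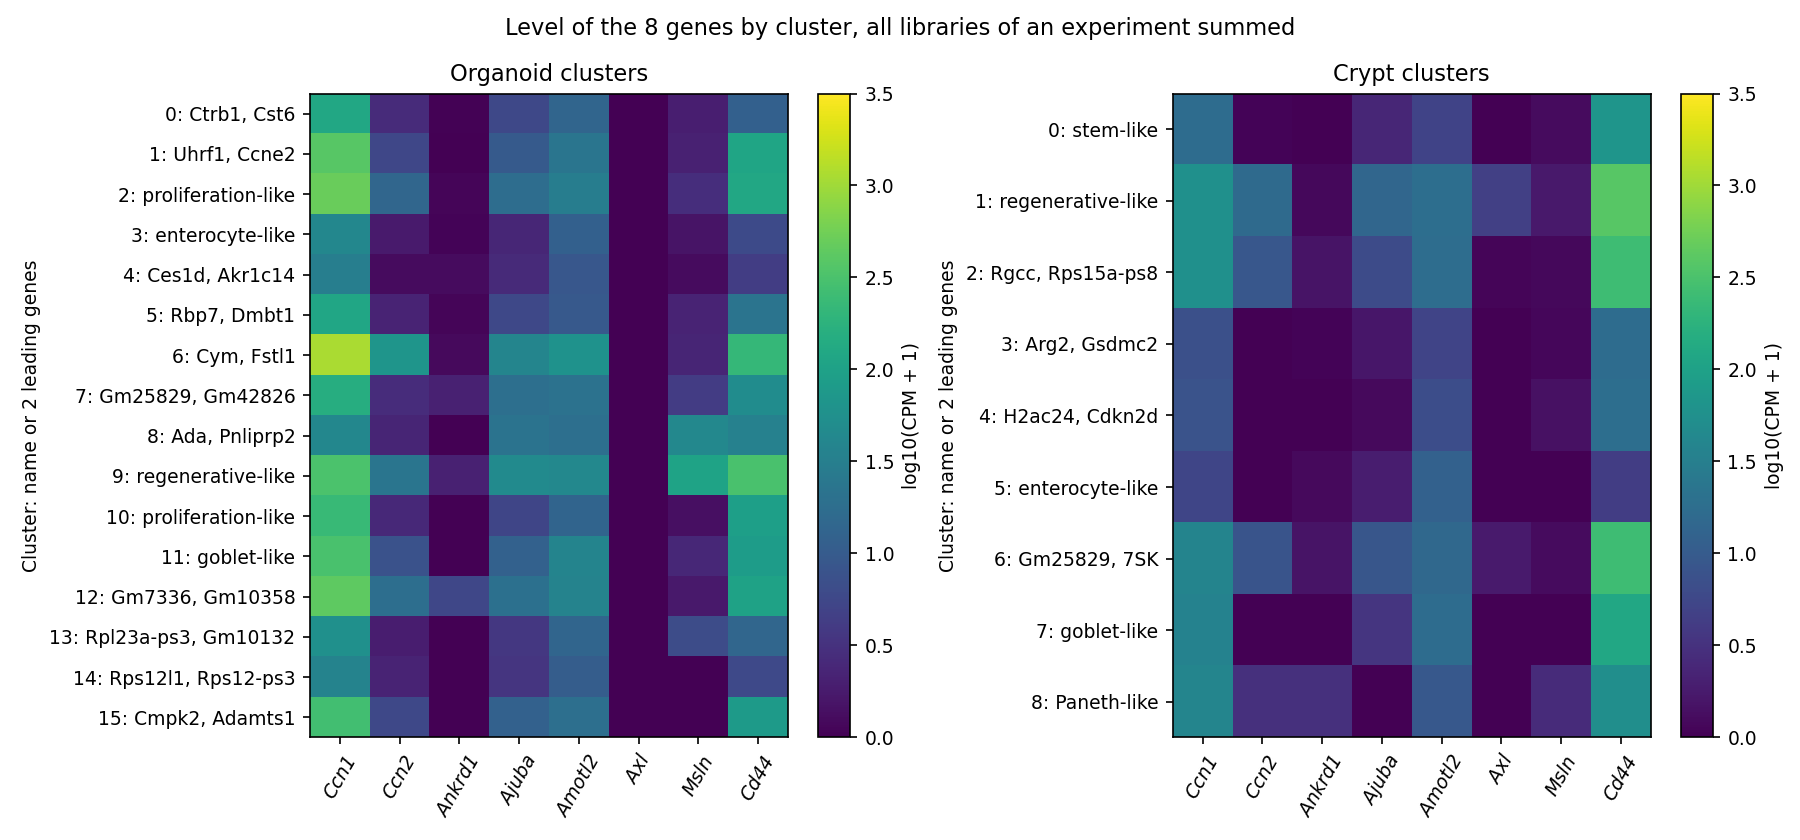
log10(CPM + 1) of each gene (columns) in each cluster of at least 50 cells (rows, with the name or the 2 leading genes), for organoids (left) and crypt cells (right), all libraries of an experiment summed. Ccn1 and Ccn2 are highest in organoid cluster 6, Msln in cluster 9, and Axl has signal in the regenerative-like crypt cluster 1.

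In Ki67-RFP+ crypt cells the question was whether the same genes differed after irradiation in the animal. There was 1 non-irradiated library of 1846 cells and there were 2 irradiated ones of 719 and 699, so no test was made. The strainer was also wider for irradiated crypts, per the labels. Cd44 stood at 34.2 CPM without irradiation and at 302 and 317 CPM in the irradiated libraries, ratios of 8.81 (95% interval 8.19 to 9.49) and 9.25 (8.60 to 9.96). Ccn1 stood at 10.8 against 52.4 and 53.1 CPM, Amotl2 at 6.30 against 18.8 and 16.7, and Ajuba at 0.845 against 7.39 and 10.9. Ccn2 had 1 UMI without irradiation and 123 and 155 UMIs after it, which are 8.96 and 12.6 CPM and ratios of 231 (40.7 to 9188) and 324 (57.2 to 12860). Both irradiated libraries lay on the same side for each of these genes.

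Axl, which had no UMI in organoids, had none in non-irradiated crypt cells and 18 and 27 UMIs in the irradiated libraries. Set against the limit of 0.116 CPM that 3 UMIs per library would give, it was at least 11.3-fold and 18.8-fold higher, leaving aside the counting error of its own 18 and 27 UMIs. With that error, the exact 95% intervals of the ratios began at 8.25 and 14.3. Msln was at 0.238 CPM without irradiation and 0.265 and 0.568 after it, with 4 to 7 UMIs per library. All of its non-irradiated UMIs lay in fractional entries, and the whole-number part gave 0.0392, 0.147 and 0.573 CPM, so no difference is read from them. Ankrd1 had 2.5 UMIs, as deposited values need not be whole, against 6 and 3. Of all genes with a mean of 1 CPM, 13.7% were at least 2-fold higher in the first irradiated library and 15.1% in the second. Ccn2, Ajuba and Axl reached that mean only through irradiated libraries, so no count of members is set against these shares. Regenerative markers summed to 65.1 CPM against 2013 and 2793.

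Of thinned crypt cells, 6.77% had a Cd44 UMI without irradiation and 40.8 and 42.5% after it (29.2, 88.7 and 85.7% without thinning, at median depths of 11969, 14399 and 13500 UMIs). Cells with no member made up 90.8, 52.7 and 48.9%. Most clusters of at least 50 cells held cells of 1 state of irradiation, so levels could not be compared within them. The stem-like cluster 0, of 730 non-irradiated cells, had Cd44 at 65.4 CPM and Ccn1 at 16.2, and the enterocyte-like cluster 5 had Cd44 at 3.30 CPM. The regenerative-like cluster 1, of 271 and 354 cells from the irradiated libraries, had Cd44 at 398 and 383 CPM and Ccn2 at 11.5 and 17.9, and it held 41 of the 45 Axl UMIs. Of its thinned cells 48.3% had a Cd44 UMI, against 12.6% in cluster 0 and 0 of 302 in cluster 5. High Cd44 was not particular to it. Clusters 2 (382 cells) and 6 (295 cells), unnamed and also of irradiated cells only, had Cd44 at 261 and 256 CPM. Of their thinned cells 40.6 and 38.3% had a Cd44 UMI. Ccn1 was at 56.7 CPM in cluster 1, 56.0 in cluster 2 and 36.4 in cluster 6.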

How the data were processed

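Bulk RNA, chromatin and single-cell files were used as deposited, and the 8 genes and the gene lists were chosen with earlier results of these data known. The FPKM values were computed by the authors in 3 tables of 6 libraries, which state no read totals. The submitters' processing notes name TopHat2 2.1.0, Cuffnorm 2.2.1, Cuffdiff 2.2.1, STAR 2.7.10a and STARsolo, with builds mm9, mm39 and GRCm39, without saying which served which file. The single-cell values deposited by the authors are expected counts, which need not be whole (8.64 to 22.0% of UMIs lie in fractional entries), with 12344815 to 32430950 UMIs per library in the cells kept. No test was run on them, and sums and CPM used them unrounded. Before thinning, the entries of the 8 genes and the cell totals were rounded to whole numbers. The shares of thinned cells thus rest on rounded values. The −log10 scores of the deposited ATAC peaks were not used. Peaks on chromosome 1 reached past the last gene of GRCm38, and 2.62 to 4.51% of its promoters overlapped a peak, so the 18 peak lists could not be placed on the gene table at hand.

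FPKM were fitted as log2(FPKM + 1) with limma 3.58.1 in R 4.3.3 (trend, robust), 1 fit a table, for genes averaging 1 FPKM or more, two-sided, with Benjamini-Hochberg adjustment over all genes tested. Fold changes on this scale understate the change of low genes. The interactions used 12 libraries. Groups and replicate numbers came from the labels, which give no batch. Same-numbered libraries deviated together (r over 0.1) in 3 of 9 pairs, so the numbers were not treated as pairs. The code was tested on simulated data.

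A barcode was kept as a cell from 500 UMIs and 250 genes upward, with no more than 20% of its UMIs mitochondrial. No doublet caller was run. Clusters (scanpy 1.11.5, leidenalg 0.10.2, resolution 0.6) were built without the 8 genes, and the naming rule was made stricter after the clusters were seen. Intervals are 95% exact Poisson or Clopper-Pearson and cover counting error. Named were all 8 genes in each comparison, of the other targets the 3 highest, the 3 lowest and every fall, of the Hippo genes Yap1, Wwtr1 and Tead1 to Tead4, and the 3 most alike genes per member. Alternatives were another pseudocount, no filter, 2 other scalings, another limma setting, all 18 libraries in 1 fit, a replicate block, each library left out, and for single cells all barcodes, whole UMIs, nuclear genes and other thinning.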

Additional observations from a re-analysis of the deposited data

Results flagged for a closer look

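The TGFB1 response differed between irradiated and non-irradiated D7 organoids, by the interaction term in limma, for each of the 7 genes tested, as it did for 53.1% of all genes (25.3% higher, 27.8% lower). On the log2 scale the difference, irradiated minus non-irradiated, was 1.45 for Ccn1, 0.91 for Amotl2, 0.89 for Ajuba, 0.73 for Msln and 0.68 for Ankrd1. It was -1.54 for Ccn2, or -0.95 with a pseudocount of 0.1, and -0.49 for Cd44. Ccn2 and Cd44 thus went against the other 5.

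Between D11 and D7 the response of irradiated organoids differed, by the same kind of term, for 4 of the 7 genes, a share below the 64.5% of all genes. The difference, D11 minus D7, was 2.26 for Msln, 2.00 for Ankrd1, 1.41 for Ccn2 and -1.62 for Ccn1. Ccn1 and Ccn2 had terms of opposite sign in both contrasts. Both contrasts hold the same D7 IR libraries, with opposite sign, so the second is not independent of the first.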

How the results depend on the processing

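The count of members called stayed at 7 in D7 non-IR and at 7 or 8 in D7 IR, in D11 IR and in the irradiation term over the alternatives, Axl being the 8th where the filter was dropped. In D11 IR it was 6 of 6 without Ankrd1, a setting chosen after seeing the data. For the day term it ranged from 4 to 6, also over the fits that left out 1 library. Its Ajuba term was -0.19 and turned to 0.021 (limma adjusted p = 0.88) under quantile normalization. With the replicate block, which the pairing check did not call for, the counts were 7, 7, 7 and 7, and 6 for the day term, where Ajuba (adjusted p = 0.049) and Cd44 (adjusted p = 0.0095) passed. Of the recomputed log2 changes of members, 531 kept direction and side of the threshold, 7 passed where the reported one did not, and 1 reversed. In single cells 160 recomputed CPM values stayed within the counting interval and 8 did not. The shares of cells with a UMI moved with the thinning depth in 80 cases and not in 32, upward in 45 without thinning and downward in 35 at 1000 UMIs. Other windows, overlaps and scores for ATAC peaks were not run, since the peaks were not placed. Depth limits Axl and Ankrd1 most, with at most 27 and 17 UMIs in a library.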
